A study of Mus musculus with 25 samples.

Results

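Collagen chain genes were followed in mouse dorsal root ganglia of the lumbar levels L3 to L5, where hind limb sensory neurons have their somata, in a surgical model of knee osteoarthritis. The genes were those whose symbol has the form Col, a type number, the letter a and a chain number. The array carried 44 such probe sets (a probe set is the group of probes that reports on a transcript). In 2 of them the annotation also named a second gene (Col7a1 with Mir711, Col6a4 with Dvwa), and these were left out. This gave 42 of the 30142 genes on the array, each with its own probe set. By structure 11 were fibrillar, 8 were basement membrane chains and 23 belonged to other classes.

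All mice were male C57BL/6 of no stated genetic change. They had DMM (destabilization of the medial meniscus, which slowly damages the cartilage of the joint) of the right knee when 10 weeks old, or a sham operation on that knee, or no surgery (naive). Ganglia were collected 4, 8 or 16 weeks later, when the mice were 14, 18 or 26 weeks old, and naive mice were killed at the same ages. Each of the 9 groups held 3 arrays except sham at 8 weeks, which held 1 because the other samples of that group failed the submitters' quality control. How many animals went into each array is not in the labels, nor is the side the ganglia came from, and the p-values measure only the spread between these arrays. Because whole ganglia were measured, fewer cells of a type and less RNA per cell cannot be told apart.

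Collagens are the structural proteins of the extracellular matrix, built as triple helices of 3 alpha chains. Fibrillar collagens such as types I, III and V form the tensile fibres of connective tissue, which in a ganglion lie in its capsule and between its cells. Type IV collagen forms the sheet of every basement membrane, around vessels and around the satellite and Schwann cells that wrap neurons, and types XV and XVIII sit in or next to that sheet. The other classes decorate fibrils (types IX, XII and XIV), form beaded filaments (type VI), form hexagonal networks (types VIII and X) or span the cell membrane (types XIII, XVII, XXIII and XXV).

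Values are deposited log2 intensities. They are compared between groups for each gene and never between genes. Genes with a mean over all 25 arrays above 4.52, the 40th percentile of the transcript probe sets, were tested. This left 20260 genes, with 36 of the 42 collagens (10 fibrillar, 6 basement membrane and 20 other). Col11a2, Col4a5, Col22a1, Col17a1, Col9a1 and Col4a6 lay below that limit and were not tested. Of the 36, 20 were above the median of the negative control probe sets (5.06 to 5.35 between arrays) on every array, 10 were below it on every array and 6 lay on both sides. The tissue label held: the mean log2 intensity of 8 sensory neuron markers lay between 14.95 and 15.13 in every array. The mean of the meninges list, the transporter Slc6a13 and 9 other genes of the membranes around nerve roots, was uneven: 8.82, 9.70 and 6.43 in the 3 DMM arrays at 16 weeks and between 6.42 and 7.55 in naive arrays of that age. Collagen values of DMM replicates 2 and 3 at 16 weeks and of DMM replicate 2 at 8 weeks stood apart in the same directions. Only some of the results that rest on them are also given without them. The spread is shared by all groups, so these arrays enter the standard errors of every comparison unless said otherwise.

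**Figure D1:**
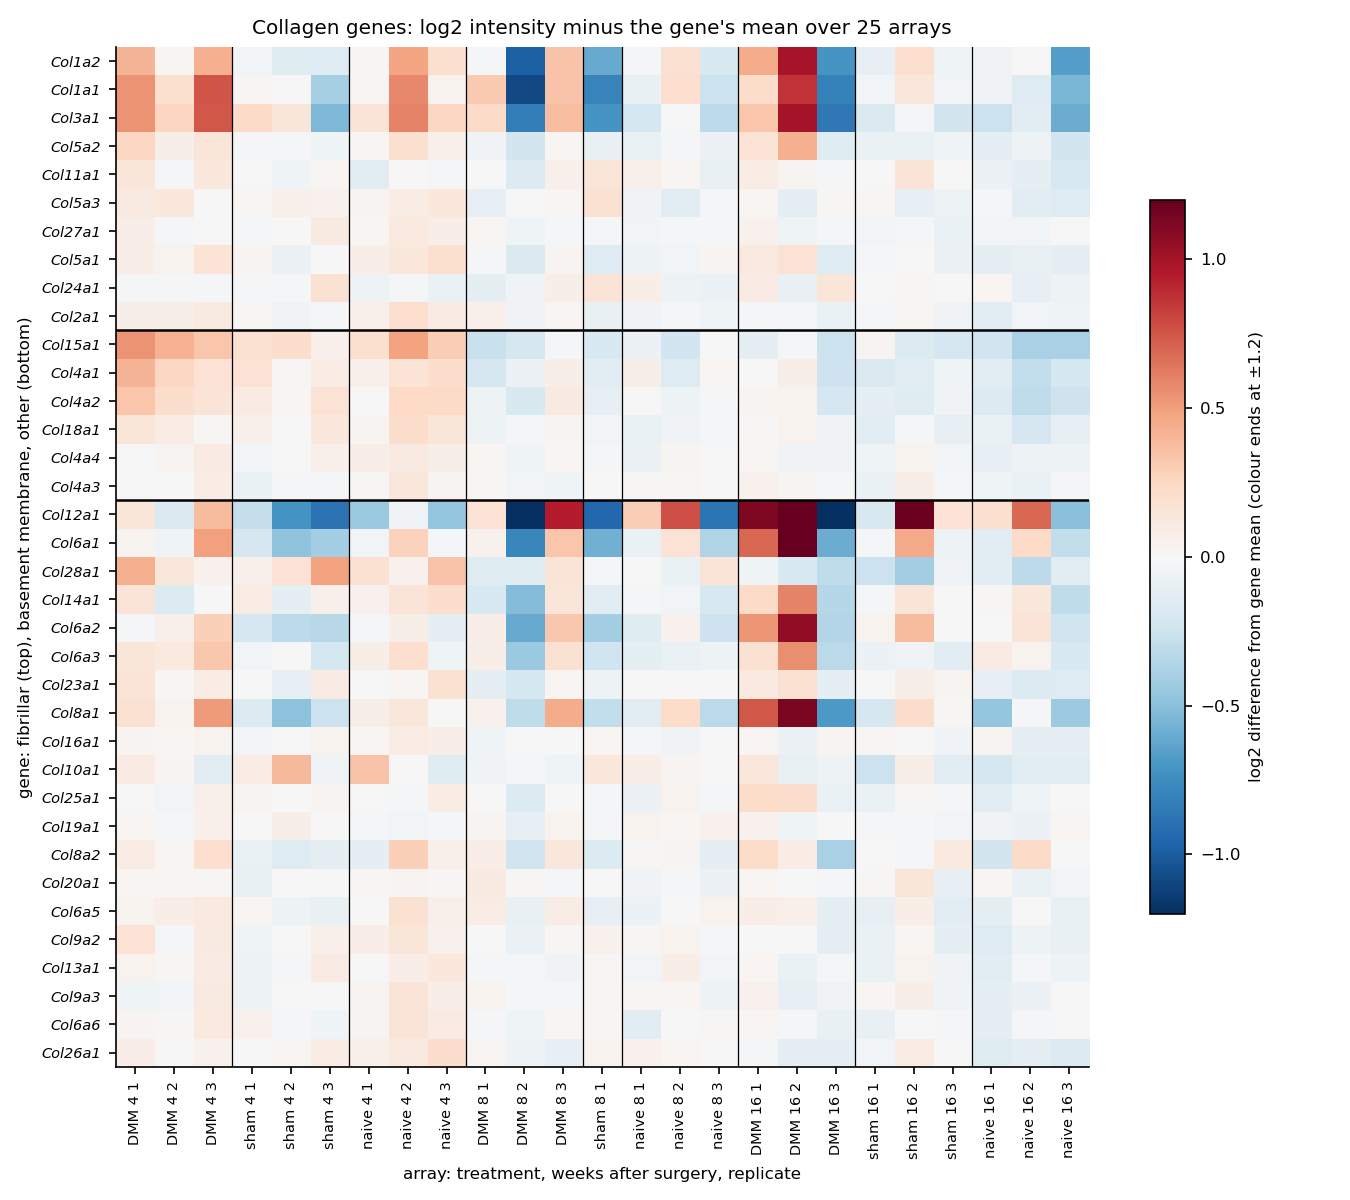
Log2 intensity minus the gene's mean over 25 arrays, for the 36 collagen genes tested (rows, by class) in every array (columns, by time after surgery and then DMM, sham and naive). The colour scale ends at 1.2 to each side. The widest rows are Col1a1, Col1a2, Col3a1, Col12a1, Col6a1, Col6a2 and Col8a1, with 2 high and 1 low among the 3 DMM arrays at 16 weeks. The basement membrane block is darker red at 4 weeks than later.

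Collagens were called most often between naive mice of different age. In 26-week-old naive mice (the 16-week group), 11 of the 36 collagens were lower than in 14-week-old naive mice (the 4-week group) at an adjusted p under 0.05, and 0 were higher (6.08% of all genes). That was 30.6% of the collagens, where 12.7% of all genes tested were called lower. The median collagen difference was -0.18 on the log2 scale (all genes -0.07), 34 of 36 differences were negative (63.8% of all genes), and in 23 of 36 the 2 groups did not overlap with the older mice lower (26.2% of all genes). By class, 5 of 6 basement membrane chains, 3 of 10 fibrillar chains and 3 of 20 others fell, with median differences of -0.31, -0.21 and -0.14. Differences and adjusted p-values are from limma with Benjamini-Hochberg adjustment over the 20260 genes. Col15a1, Col4a1 and Col4a2 kept their call in all 16 alternatives run and Col26a1 in the 15 in which it was tested (it lay below the stricter limit on level), and the other 7 lost it in at least 1. The median of the negative control probe sets moved by 0.15 the opposite way, its part in the result was not tested, and the labels do not give the order in which arrays were run.

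Col15a1, a proteoglycan-type collagen that anchors basement membranes to the matrix beneath, changed the most. It read 7.10, 6.95 and 6.95 in the 16-week naive arrays and 7.53, 7.82 and 7.64 in the 4-week naive arrays, with no overlap. The log2 difference was -0.67 ± 0.09 (SE, adjusted p 0.000285, limma), and the adjusted p stayed between 6.11e-05 and 0.00831 in the alternatives. Naive mice at 8 weeks lay between, at 7.27, 7.11 and 7.34.

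Col4a1 and Col4a2, the chains of the standard type IV heterotrimer, fell together. Col4a1 read 6.20, 6.04 and 6.12 in the 16-week naive arrays and 6.39, 6.49 and 6.54 in the 4-week naive arrays, a difference of -0.36 ± 0.09 (SE, adjusted p 0.0103, limma). Col4a2 read 6.14, 6.00 and 6.05 in the 16-week naive arrays and 6.30, 6.54 and 6.54 in the 4-week ones, a difference of -0.40 ± 0.08 (SE, adjusted p 0.0038, limma). Every older array was below every younger one for both chains. Col18a1, whose C-terminal fragment is endostatin, read 5.52, 5.39 and 5.49 in the 16-week naive arrays and 5.62, 5.81 and 5.74 in the 4-week naive arrays, a difference of -0.26 ± 0.06 (SE, adjusted p 0.00563, limma). It lost its call only where the fit was limited to the arrays compared. Col4a4, a chain of the type IV network best known from kidney and inner ear, fell by 0.16 (adjusted p 0.027, limma) but was below the negative control median in all 25 arrays, and Col4a3 (-0.11) did not pass.

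The 2 type IV genes are shown with their upstream sequence because they moved together and their annotated starts lie close to each other. Each sequence is the 250 bases before the annotated start (RefSeq, GRCm38.p6), written 5′ to 3′ on the gene's own strand, and capitals mark matches to 3 motifs searched on both strands. They were the CCAAT box, the GC box with the letters GGGCGG and the TATA box with the letters TATAAA. Col4a1 is chr8:11312827-11313076 on the minus strand and Col4a2 is chr8:11312555-11312804 on the plus strand. Col15a1 is chr4:47207762-47208011 on the plus strand and is shown as the gene of largest change.
Col4a1: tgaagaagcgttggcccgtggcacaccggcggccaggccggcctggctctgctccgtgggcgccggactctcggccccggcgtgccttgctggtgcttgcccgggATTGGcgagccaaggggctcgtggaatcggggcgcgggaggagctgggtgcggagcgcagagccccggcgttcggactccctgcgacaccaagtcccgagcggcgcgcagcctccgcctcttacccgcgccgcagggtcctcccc
Col4a2: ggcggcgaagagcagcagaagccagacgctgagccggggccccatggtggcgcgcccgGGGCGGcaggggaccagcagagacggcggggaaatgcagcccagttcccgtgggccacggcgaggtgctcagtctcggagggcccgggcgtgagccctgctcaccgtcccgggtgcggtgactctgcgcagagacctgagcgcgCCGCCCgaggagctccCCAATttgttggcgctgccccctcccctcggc
Col15a1: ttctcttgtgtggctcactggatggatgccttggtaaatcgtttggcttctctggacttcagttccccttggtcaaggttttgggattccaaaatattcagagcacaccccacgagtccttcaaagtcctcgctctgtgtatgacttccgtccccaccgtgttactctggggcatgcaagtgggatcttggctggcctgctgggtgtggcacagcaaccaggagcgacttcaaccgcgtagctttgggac
The annotated starts of Col4a1 and Col4a2 were 21 bases apart on opposite strands. The 250-base sequences printed for these 2 genes do not overlap. In the source table the windows run 300 bases, past the start, and those of the 2 genes shared 78 bases. Whether the position of the starts had a part in the values was not tested. The Col4a1 sequence held 1 CCAAT match, on its minus strand 145 bases before the start. The Col4a2 sequence held 1 CCAAT match 32 bases before the start and 2 GC boxes, at 192 bases on its plus strand and 48 on its minus strand. The Col15a1 sequence held none of the 3 motifs. Of 32851 promoter windows of this length, 33.9% held CCAAT, 32.7% the GC box and 12.4% the TATA box. A match is a description of letters, and its absence says only that they are not in this window. The table held a window for 33 of the 42 collagens.

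**Figure D2:**
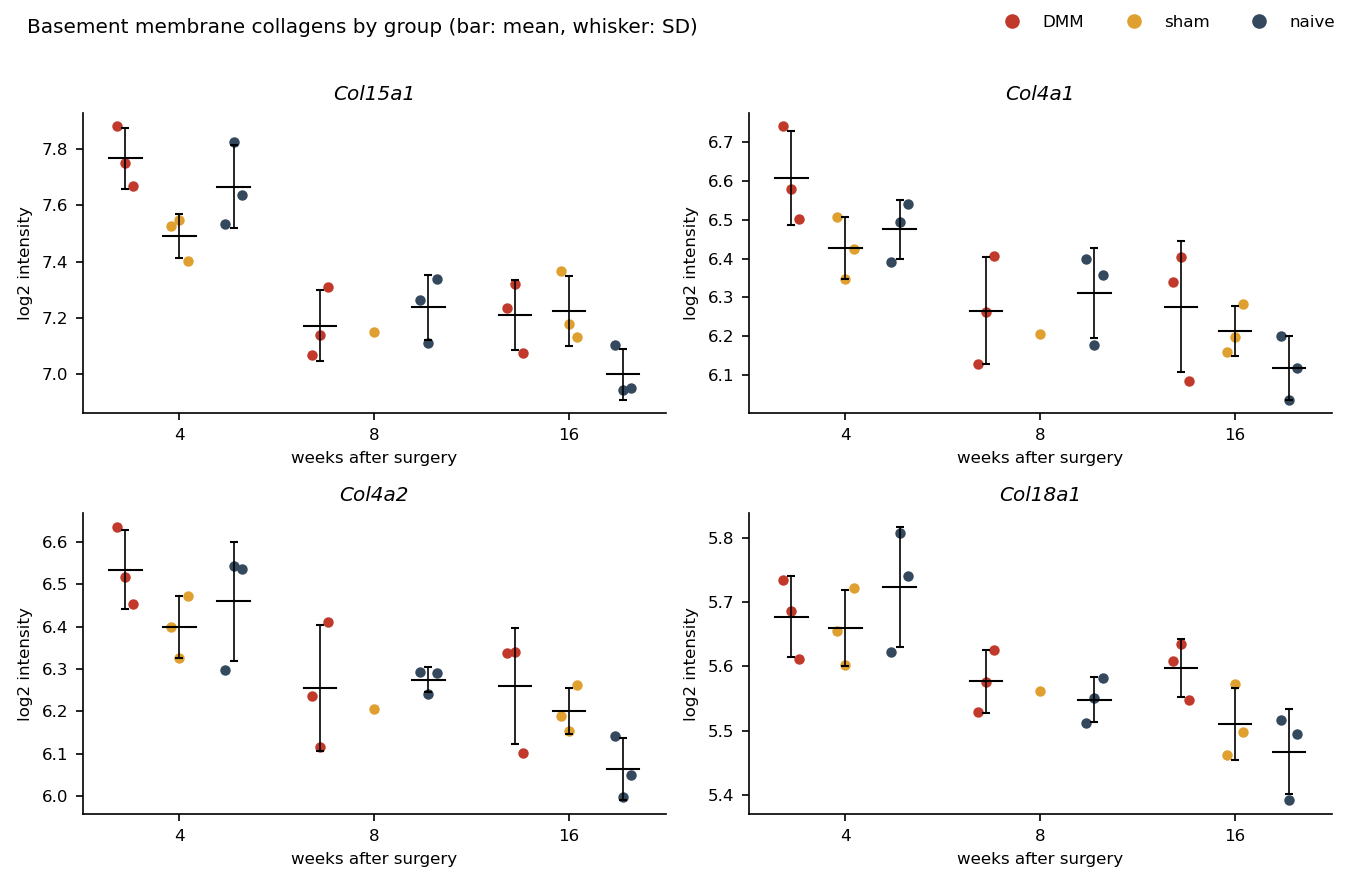
Log2 intensity (y axis) of the 4 basement membrane collagens above the negative control median, by weeks after surgery (x axis) for DMM, sham and naive arrays. Points are arrays, bars are means and whiskers are SDs (sham at 8 weeks is 1 array). For all 4 genes the naive arrays at 16 weeks lie below every naive array at 4 weeks.

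Among fibrillar chains, Col5a1, Col5a3 and Col2a1 passed the test. Type V chains nucleate fibrils and set their diameter. Col5a1 read 5.23, 5.25 and 5.23 in the 16-week naive arrays and 5.42, 5.47 and 5.53 in the 4-week naive arrays, a difference of -0.24 ± 0.07 (SE, adjusted p 0.028, limma). Its 16-week values lay within the range of the negative control medians of that group (5.12 to 5.31). Col5a3, another type V chain, read 6.06, 5.94 and 5.93 in the 16-week naive arrays and 6.11, 6.17 and 6.21 in the 4-week ones (-0.19, adjusted p 0.0289, limma). Col2a1, the chain of cartilage fibrils, fell by 0.19 (adjusted p 0.011, limma) to a mean of 4.92 at 16 weeks, against 5.11 at 4 weeks, and was above the negative control median on 2 of 25 arrays. Col5a1 and Col2a1 lost their call in 5 and 3 of 15 alternatives, and Col5a3 in 5 of 16.

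The chains of the bulk fibrils had differences as large and did not pass. Col3a1 read 8.23, 8.36 and 7.90 in the 16-week naive arrays and 8.64, 9.09 and 8.74 in the 4-week naive arrays, a difference of -0.66 ± 0.34 (SE, adjusted p 0.187, limma). Col1a2 (-0.47, adjusted p 0.334, limma) and Col1a1 (-0.46, adjusted p 0.373, limma) likewise had naive groups that did not overlap. Their standard error is set in part by arrays outside the comparison, since the spread is shared by all groups. With the 3 DMM arrays that stood apart left out of the fit, an alternative chosen after the values were seen, 14 collagens fell, where 14% of all genes did, and the adjusted p of Col3a1 was 0.0175, of Col1a2 0.0634 and of Col1a1 0.0777 (limma).

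Of the other classes, Col28a1, Col26a1 and Col9a2 fell. Col28a1, a chain first described in the basement membranes of Schwann cells, read 7.38, 7.19 and 7.37 in the 16-week naive arrays and 7.68, 7.56 and 7.84 in the 4-week naive arrays, a difference of -0.38 ± 0.13 (SE, adjusted p 0.0422, limma). It lost its call in 6 of the alternatives. Col26a1 (-0.27, adjusted p 0.00217, limma) and Col9a2 (-0.20, adjusted p 0.0238, limma) lay below the negative control median in every array. Type VI, XII and XIV chains did not pass: the differences were -0.14 ± 0.34 for Col6a1, -0.09 ± 0.16 for Col6a3, -0.19 ± 0.18 for Col14a1 and 0.44 ± 0.65 for Col12a1 (SE), the last the larger of the 2 positive differences among the 36.

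In naive mice at 8 against 4 weeks, 1 collagen fell (Col15a1, -0.43 ± 0.09, SE, adjusted p 0.0147, limma), where 4.27% of all genes were called lower. The median of the negative control probe sets moved by 0.12 the opposite way, and its part was not tested. Between naive mice at 16 and 8 weeks 0 were called, where 0.0197% of all genes were called in either direction, and 4 had an unadjusted p under 0.05 (11.9% of all genes). These comparisons, and those of operated mice over time below, were added after values had been seen, and they share naive arrays with the one above.

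The change over time was also taken in operated mice. In DMM mice at 16 against 4 weeks, 1 of 36 collagens fell, where 1.8% of all genes were called lower. It was Col15a1, which read 7.23, 7.32 and 7.08 in DMM mice at 16 weeks and 7.88, 7.75 and 7.67 at 4 weeks, a difference of -0.56 ± 0.09 (SE, adjusted p 0.00764, limma). Without DMM replicate 1 at 4 weeks it no longer passed, at -0.50. Col4a1 differed by -0.33 (adjusted p 0.0532, limma) and Col4a2 by -0.28 (adjusted p 0.0829, limma), and both passed with array weights or another normalization. In sham mice at 16 against 4 weeks 0 passed, where 1.76% of all genes were called in either direction, and 6 collagens had an unadjusted p under 0.05, all lower (8.19% of all genes). The differences ran both ways, with 15 of 36 positive (52.6% of all genes) and a median of -0.01. The groups did not overlap for 4 collagens with the later arrays higher (15.2% of all genes) and for 7 with them lower (10.7% of all genes). Col12a1 read 8.78, 10.16 and 9.15 in sham mice at 16 weeks and 8.70, 8.26 and 8.09 at 4 weeks, a difference of 1.01 ± 0.65 (SE, adjusted p 0.431, limma) that was the widest of any collagen in the comparisons made. Col28a1 (-0.48, adjusted p 0.0579, limma) came nearest and passed without sham replicate 3 at 16 weeks. Col15a1 read 7.37, 7.18 and 7.13 in sham mice at 16 weeks and 7.53, 7.55 and 7.40 at 4 weeks (-0.27, adjusted p 0.136, limma). The median of the negative control probe sets was higher at 16 than at 4 weeks, by 0.16 in DMM and 0.08 in sham mice. Its part in these differences was not tested.

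No collagen passed a test of whether the change over time differed between treatments, though most differences were positive in both. For DMM against naive, the change of the difference between 16 and 4 weeks called 0 collagens, where 0.00494% of all genes were called, and 1 had an unadjusted p under 0.05 (10.6% of all genes). There 33 of 36 were positive (59.3% of all genes), with a median of 0.10 (all genes 0.04). The smallest adjusted p was 0.461 (Col18a1, 0.18 ± 0.08, SE, limma), and Col15a1 gave 0.11 ± 0.13 (adjusted p 0.805, limma). For sham against naive 0 were called as well, where 2.09% of all genes were called, and 6 had an unadjusted p under 0.05 (20.2% of all genes). There 32 of 36 were positive (63.1% of all genes), with a median of 0.15 (all genes 0.07). Both use the same naive arrays. Col26a1 (0.25, adjusted p 0.0696, limma) and Col15a1 (0.40 ± 0.13, SE, adjusted p 0.106, limma) came nearest.

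DMM against naive asks how the ganglia of mice with the injured knee differ from those of intact mice. At 16 weeks, when joint damage in this model is advanced, 0 of 36 collagens passed, where 0.0148% of all genes did, and 8 collagens had an unadjusted p under 0.05, all higher (22.2%, where 5.43% of all genes had such a p and were higher). The differences between group means ran 1 way: 35 of 36 were positive (53% of all genes) with a median of 0.14 (all genes 0.01). The single arrays did not. For each array the 36 deviations from the gene's mean over all arrays were averaged. This average was 0.16, 0.28 and -0.23 in DMM arrays and -0.09, -0.05 and -0.18 in naive arrays at 16 weeks. DMM replicate 3 thus lay below every naive array. Many chains varied together between arrays, so the 35 are not independent results. The groups did not overlap, with DMM higher, for 6 collagens (16.7%, against 6.63% of all genes). This comparison uses the same naive arrays at 16 weeks as the one over time, in which those arrays were low. The median of the negative control probe sets was also higher in DMM mice at 16 weeks, by 0.06. Its part in these differences was not tested. At 4 weeks 0 passed (0.00987% of all genes) and 0 had an unadjusted p under 0.05 (8.8% of all genes), with 18 of 36 differences positive (39.3% of all genes) and a median of 0.01. At 8 weeks 0 passed (0.0494% of all genes) and 0 had an unadjusted p under 0.05 (8.49% of all genes), with 15 positive (49.5% of all genes) and a median of -0.03. Averaged over the 3 times, 0 passed (0.0444% of all genes) and 1 had an unadjusted p under 0.05 (7.32% of all genes). There 30 of 36 differences were positive (44.1% of all genes), with a median of 0.04 and a smallest adjusted p of 0.667 (limma). The negative control median moved the same way by 0.04.

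**Figure D3:**
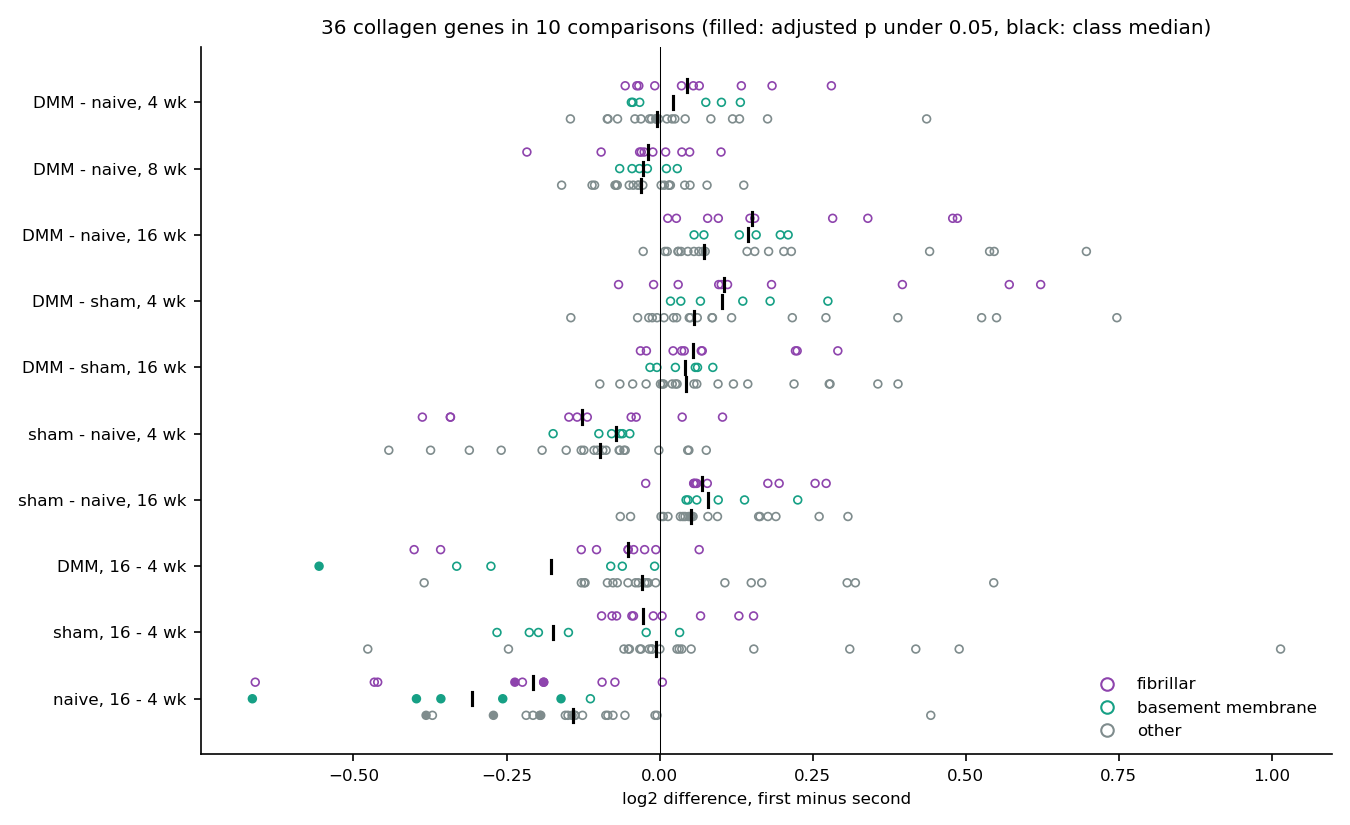
Log2 difference (x axis) of each of the 36 collagens tested, by class and colour, in 10 comparisons (rows). The first group or time named is set against the second. Filled points have an adjusted p under 0.05 and black ticks are class medians. The naive 16 against 4 weeks row holds 11 filled points, all negative, and the DMM against naive row at 16 weeks lies almost wholly above 0 with 0 filled.

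The chains with the largest differences at 16 weeks were those that varied most between arrays. Col12a1, which bridges fibrils in dense connective tissue, read 10.09, 11.08 and 7.75 in DMM mice at 16 weeks and 9.17, 9.67 and 8.47 in naive mice. The DMM arrays lie on both sides of the naive ones, and the difference was 0.54 ± 0.65 (SE, adjusted p 0.847, limma). Col8a1, a network collagen of vessel walls and the eye, read 6.97, 7.35 and 5.53 in DMM mice and 5.76, 6.21 and 5.79 in naive mice (0.70 ± 0.31, SE, adjusted p 0.547, limma). Again 2 DMM arrays were above all naive arrays and the third was below them.

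The same order held in the fibril and type VI chains. Col1a1 read 9.27, 9.92 and 8.25 in DMM mice at 16 weeks and 9.01, 8.90 and 8.51 in naive mice. Col1a2 read 10.41, 10.96 and 9.25 in DMM mice and 9.92, 9.96 and 9.30 in naive mice. Col3a1 read 8.82, 9.49 and 7.64 in DMM mice and 8.23, 8.36 and 7.90 in naive mice. In each of these chains DMM replicate 2 was the highest and DMM replicate 3 the lowest of the 6 arrays. Col6a1, an obligate chain of the type VI filament, read 8.31, 8.99 and 7.03 in DMM mice and 7.50, 7.86 and 7.34 in naive mice. The differences were 0.34 ± 0.35 for Col1a1, 0.48 ± 0.33 for Col1a2, 0.49 ± 0.34 for Col3a1 and 0.55 ± 0.34 for Col6a1 (SE), with adjusted p between 0.667 and 0.81 (limma). Smaller differences were found in Col6a3 (0.16 ± 0.16), Col14a1 (0.22 ± 0.18) and Col5a1 (0.15 ± 0.07) (SE).

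Without DMM replicate 3 at 16 weeks, 3 collagens rose in DMM mice against naive mice, where 1.43% of all genes were called higher. They were Col8a1 (1.24 ± 0.21, SE, adjusted p 0.00577, limma), Col5a2 (0.43 ± 0.08, SE, adjusted p 0.018, limma), a type V chain, and Col25a1 (0.28 ± 0.06, SE, adjusted p 0.0312, limma), a membrane collagen made by neurons. With all arrays Col5a2 read 6.55, 6.82 and 6.25 in DMM mice and 6.27, 6.33 and 6.17 in naive mice (0.28 ± 0.10, SE, adjusted p 0.489, limma). Without DMM replicate 2 at 16 weeks 0 passed and the median of the 36 was 0.08.

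In Col4a1 and Col4a2 DMM replicate 3 was again the lowest DMM array, over a narrower range. At 16 weeks Col4a1 read 6.34, 6.40 and 6.08 in DMM mice and 6.20, 6.04 and 6.12 in naive mice (0.16 ± 0.09, SE, adjusted p 0.632, limma), and Col4a2 read 6.34, 6.34 and 6.10 in DMM mice and 6.14, 6.00 and 6.05 in naive mice (0.20 ± 0.08, SE, adjusted p 0.543, limma). Col18a1 read 5.61, 5.64 and 5.55 in DMM mice and 5.52, 5.39 and 5.49 in naive mice (0.13 ± 0.06, SE, adjusted p 0.548, limma), with no overlap. The other collagens whose groups did not overlap were Col4a3, Col4a4, Col10a1, Col11a1 and Col26a1, with differences of 0.06 to 0.16. Of these, all but Col11a1 lay at or below the negative control level on most arrays.

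At 8 weeks DMM replicate 2 was the low array. Col1a1 read 9.37, 7.97 and 9.39 in DMM mice and 8.97, 9.26 and 8.79 in naive mice (-0.10 ± 0.35, SE, adjusted p 0.969, limma). Without that array the Col1a1 difference was 0.37 and still did not pass. Col12a1 read 9.15, 7.58 and 9.92 in DMM mice and 9.27, 9.75 and 8.11 in naive mice, so that the DMM arrays held both the lowest and the highest value. At 4 weeks the largest differences were in Col12a1 (0.44 ± 0.65), Col1a1 (0.28 ± 0.35), Col3a1 (0.18 ± 0.34) and Col14a1 (-0.15 ± 0.18) (SE), and none passed.

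The meninges markers varied in the same arrays. Slc6a13, a GABA and taurine transporter of the meninges, read 9.67, 10.42 and 7.33 in DMM mice at 16 weeks and 7.04, 7.43 and 7.17 in naive mice. Across the 10 markers of that list all 10 were higher in DMM mice at 16 weeks (53% of all genes), with a median of 1.31. Of the 10, 0 were called (0.0148% of all genes). The list mean lay between 6.43 and 9.70 in DMM mice and between 6.42 and 7.55 in naive mice. Meningeal fibroblasts make fibrillar collagens themselves, and the part of these markers in the collagen values was not tested. Of 7 cartilage and 6 bone markers, 5 and 3 were bright enough to be tested and 0 were called, so these lists say little about joint tissue.

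**Figure D4:**
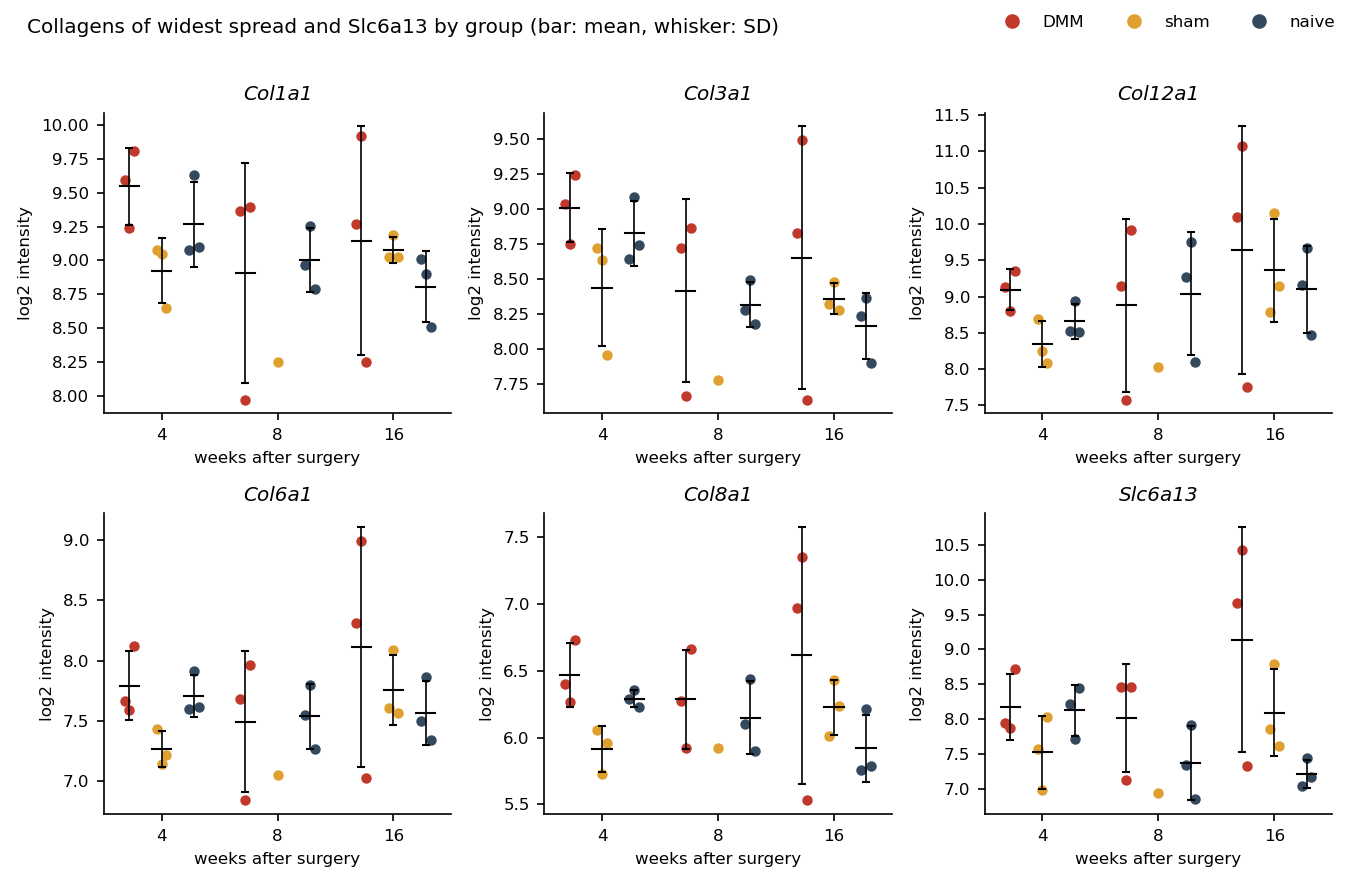
Log2 intensity (y axis, on a separate scale for each gene) of 5 collagens of wide spread and of the meninges marker Slc6a13, by weeks after surgery (x axis) for DMM, sham and naive arrays. Points are arrays, bars are means and whiskers are SDs. In every panel the 3 DMM arrays at 16 weeks hold 2 high values and 1 low one.

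Over the 24 arrays of groups of 3, values were taken as deviations from the group mean and correlated, for 10 pairs chosen after values had been seen, with permutation within groups and p-values adjusted over the 10. The pairs were chosen from these same arrays. The adjustment does not cover that choice, so the p-values are given as a description. Col1a1 and Col1a2, which together make type I collagen, gave r = 0.956 and rho = 0.909 (n = 24, permutation, adjusted p 3.33e-05 and 5e-05), and r was 0.915 without the 2 farthest arrays. Col1a1 and Col3a1 gave r = 0.970 and rho = 0.957 (n = 24, permutation, adjusted p 3.33e-05 and 6.67e-05), and 0.951 without those arrays. Their smallest raw p, 1e-05, is the smallest these permutations can give. Col4a1 and Col4a2 gave r = 0.786 and rho = 0.835 (n = 24, permutation, adjusted p 0.00225 and 0.00065), and 0.703 without the 2 farthest. Col1a1 with Col4a1 gave r = 0.302 and rho = 0.208 (n = 24, permutation, adjusted p 0.435 and 0.526). Within the 16-week arrays that r was 0.811, and at 4 weeks it was 0.0232 (9 arrays each). At 8 weeks it was -0.126 (6 arrays).

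Col12a1 and Slc6a13 gave r = 0.855 and rho = 0.733 (n = 24, permutation, adjusted p 0.0037 and 0.00872). Without the 2 farthest arrays, both of DMM mice at 16 weeks, r was 0.716. Within times it was -0.0163 at 4 weeks, 0.952 at 8 weeks and 0.951 at 16 weeks, so the relation was not found at 4 weeks. Col1a1 and Slc6a13 gave r = 0.731 and rho = 0.551 (n = 24, permutation, adjusted p 0.0344 and 0.046), with r of 0.514 without the 2 farthest arrays. Within times that r was -0.25 at 4 weeks, 0.947 at 8 weeks and 0.906 at 16 weeks. For both pairs the values within 8 and 16 weeks include the DMM arrays that stood apart. Col4a1 and Slc6a13 gave r = 0.266 and rho = 0.0374 (n = 24, permutation, adjusted p 0.5 and 0.893). Within times that r was -0.117 at 4, -0.279 at 8 and 0.698 at 16 weeks. With the endothelial gene Pecam1, Col4a1 gave r = 0.327 and rho = 0.270 (n = 24, permutation, adjusted p 0.324 and 0.379). Col15a1 with Pecam1 gave r = 0.381 and rho = 0.419 (n = 24, permutation, adjusted p 0.222 and 0.157). As a description, the r with Col1a1 was above 0.9 for Col6a1, Col6a2 and Col6a3, at 0.913, 0.921 and 0.954, and the 6 basement membrane chains ran between 0.182 (Col18a1) and 0.541 (Col4a2). The classes were mixed: the fibrillar chains Col27a1, Col24a1 and Col5a3 gave 0.101, -0.321 and -0.358.

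Col1a2 and Col3a1 are shown with their upstream sequence as fibril chains that moved together from array to array. The sequences are written as above, chr6:4505368-4505617 for Col1a2 and chr1:45311288-45311537 for Col3a1, both on the plus strand (RefSeq, GRCm38.p6).
Col1a2: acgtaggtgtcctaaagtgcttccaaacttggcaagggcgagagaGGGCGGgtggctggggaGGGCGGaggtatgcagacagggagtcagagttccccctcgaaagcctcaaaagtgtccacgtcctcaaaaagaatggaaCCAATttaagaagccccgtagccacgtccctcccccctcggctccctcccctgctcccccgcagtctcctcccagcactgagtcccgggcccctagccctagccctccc
Col3a1: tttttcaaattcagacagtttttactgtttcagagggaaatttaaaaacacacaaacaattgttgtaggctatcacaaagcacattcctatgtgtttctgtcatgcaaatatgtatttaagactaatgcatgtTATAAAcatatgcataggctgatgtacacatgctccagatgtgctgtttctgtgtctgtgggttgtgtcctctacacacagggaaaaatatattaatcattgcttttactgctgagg
The Col1a2 sequence held a CCAAT match 109 bases before the start and 2 GC boxes at 205 and 188 bases. The Col3a1 sequence held 1 TATA box match, 117 bases before the start, and neither of the others. No motif was found in both windows.

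DMM against sham asks what the injury adds to the operation. At 4 weeks 0 collagens passed, where 0% of all genes did, and 1 had an unadjusted p under 0.05 (4.68% of all genes). Of 36, 29 were higher in DMM mice (53.8% of all genes), with a median of 0.09 (all genes 0.01), and for 16 the groups did not overlap with DMM higher (44.4%, against 7.95% of all genes). Col1a1 read 9.60, 9.24 and 9.81 in DMM mice at 4 weeks and 9.08, 9.05 and 8.65 in sham mice (0.62 ± 0.35, SE, adjusted p 0.986, limma). Col3a1 read 9.04, 8.75 and 9.24 in DMM mice and 8.72, 8.64 and 7.96 in sham mice (0.57 ± 0.34, SE, adjusted p 0.986, limma). Col15a1 read 7.88, 7.75 and 7.67 in DMM mice and 7.53, 7.55 and 7.40 in sham mice (0.27 ± 0.09, SE, adjusted p 0.986, limma). In each of these genes every DMM array was above every sham array, and none passed. Col12a1 (0.75 ± 0.65), Col8a1 (0.55 ± 0.31) and Col6a1 (0.53 ± 0.34) had differences of like size (SE). Several marker lists moved with them, with 0 genes called: the mean level of the macrophage list lay at 7.85 to 7.98 in DMM mice and 7.31 to 7.65 in sham mice, that of 7 fibroblast markers at 8.03 to 8.28 in DMM mice and 7.80 to 7.89 in sham mice, and that of the proteoglycans at 10.71 to 11.21 in DMM mice and 10.23 to 10.55 in sham mice. All 10 meninges markers were higher in DMM mice too, with list means of 7.08 to 7.94 in DMM mice and 6.30 to 7.45 in sham mice. Their part in the collagen differences was not tested. At 16 weeks 0 passed (0.00494% of all genes), 1 had an unadjusted p under 0.05 (6.45% of all genes) and 28 of 36 were higher in DMM mice (45% of all genes), with a median of 0.05. The median of the negative control probe sets was higher in DMM mice by 0.07, more than the collagen median. Its part in these differences was not tested. At 8 weeks the lone sham array read 8.25 for Col1a1, 8.03 for Col12a1 and 7.15 for Col15a1, and no comparison with it is given.

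Sham against naive asks what the operation does without the injury. At 4 weeks 0 passed (0.331% of all genes), and 1 collagen had an unadjusted p under 0.05 (15.9% of all genes). Of 36, 31 were lower in sham mice (63.9% of all genes), with a median of -0.10 (all genes -0.05). The groups did not overlap, with sham lower, for 11 (30.6%, against 16.7% of all genes). Col6a1 read 7.43, 7.15 and 7.22 in sham mice and 7.60, 7.91 and 7.61 in naive mice (-0.44 ± 0.34, SE, adjusted p 0.56, limma), with no overlap. At 16 weeks 0 passed (0.00494% of all genes) and 4 had an unadjusted p under 0.05 (10.8% of all genes). There 33 of 36 were higher in sham mice (57.3% of all genes), with a median of 0.06, and for 8 the groups did not overlap with sham higher (22.2%, against 12.2% of all genes). Col15a1 read 7.37, 7.18 and 7.13 in sham mice and 7.10, 6.95 and 6.95 in naive mice (0.23 ± 0.09, SE, adjusted p 0.379, limma). The comparisons within a time share arrays: the same naive arrays stand in both comparisons with naive mice, and the same sham arrays in both that involve sham mice.

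The genes that make, bind and sense collagen were counted beside the chains. Their shares called lie near or below those of all genes (12.7% lower and 6.08% higher in naive mice at 16 against 4 weeks), so the counts are no result about the lists. In naive mice at 16 against 4 weeks, of 26 genes of collagen synthesis and crosslinking 1 rose (Colgalt2, which adds galactose to hydroxylysine, 0.34, adjusted p 0.0281, limma) and 2 fell. These were P4hb (-0.24, adjusted p 0.0174, limma), the shared subunit of prolyl 4-hydroxylase, and Pcolce2 (-0.75, adjusted p 0.00786, limma), an enhancer of procollagen processing. Of 8 collagen receptors 1 fell: Itgb1, the common beta chain of the collagen-binding integrins, at 13.49 in older and 14.02 in younger naive mice (-0.53, adjusted p 0.000363, limma). Of 8 fibril-binding proteoglycans 1 fell (Ogn, -0.98, adjusted p 0.0208, limma), and of 12 laminins and other basement membrane partners 1 fell (Nid1, which links laminin to type IV collagen, -0.43, adjusted p 0.0491, limma). Of 10 genes of TGF-beta signalling, the main inducer of collagen genes, 0 passed.

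Marker lists of several cell types were counted for the same comparison, to be read against the same 12.7% and 6.08% of all genes. Of 7 endothelial markers 0 passed, with a median of 0.00 and a mean level of 7.39 to 7.56 in older and 7.32 to 7.60 in younger naive arrays. Of 8 mural markers 2 rose (Pdgfrb 0.53 and Abcc9 0.38, adjusted p 0.00335 and 0.0399, limma). Of 5 Schwann cell markers 1 fell (Pmp2, -1.91, adjusted p 0.00512, limma), of 3 satellite glia markers 1 fell (Fabp7, -0.66, adjusted p 0.000702, limma), of 7 fibroblast markers 0 passed (median -0.09), and of 8 macrophage markers 6 fell, with a list median of -0.65. Of 10 meninges markers 0 passed, with a median of -0.52. The part of these markers in the collagen changes was not tested.

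In DMM against naive mice at 16 weeks none of the genes tested in these 5 lists passed. The counts of higher genes below are to be read against 53% of all genes. All 8 proteoglycans were higher, with a median of 0.47, and the largest difference was in Fmod, which binds type I fibrils (1.91 ± 0.81, SE, adjusted p 0.543, limma). The list mean of the proteoglycans lay between 10.12 and 12.28 in DMM arrays and between 10.38 and 11.01 in naive arrays. Of 10 TGF-beta genes 9 were higher (median 0.25), of 12 basement membrane partners 11 (median 0.12), of 8 receptors 7 (median 0.19) and of 26 synthesis genes 22 (median 0.06). All 8 macrophage markers and all 7 fibroblast markers were higher too, with medians of 0.53 and 0.10, and none of them passed. List means of DMM arrays lay on both sides of the naive ones for fibroblast markers (7.60 to 8.70 against 7.90 to 8.28). The same held for TGF-beta genes (8.09 to 8.89 against 8.17 to 8.34), receptors (7.32 to 8.10 against 7.38 to 7.60) and synthesis genes (7.76 to 8.14 against 7.83 to 7.93). Basement membrane partners overlapped (8.19 to 8.62 against 8.16 to 8.34). The macrophage list did not (7.80 to 8.08 against 7.25 to 7.49). Dcn and Lum are counted among both the fibroblast markers and the proteoglycans. Of 3 satellite glia markers 1 rose (Fabp7, 0.74 ± 0.11, SE, adjusted p 0.0146, limma).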

How the data were processed

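RNA of lumbar dorsal root ganglia was measured on 25 arrays, labelled with biotin by the manufacturer's protocol per the labels. The deposited values are log2 intensities, read as log2 from their range. How the authors normalized and summarised them, and with which software, is not stated in the labels or headers used here. Arrays have no reads to count, so their number sets the precision.

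Of 65956 transcript probe sets, 30604 carried 1 symbol in the platform annotation (827 symbols updated by Entrez identifier), which gave 30142 genes, by highest mean where a gene had several. Group means were fitted in limma 3.58.1 (R 4.3.3) over all 25 arrays, tested two-sided with eBayes (16 residual and 3.28 prior degrees of freedom) and adjusted by Benjamini-Hochberg over 20260 genes (threshold 0.05). The procedure was tested on simulated data.

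The members, lists and comparisons were chosen with earlier results of these data known. Named were all collagens past the threshold, the 4 highest and 4 lowest differences per comparison, 11 core chains, and up to 3 genes per pathway list. There were 10 planned comparisons and 5 added after values had been seen. Alternatives were filters, normalizations, prior, weights, probe set choice, samples and replicate block. Equal replicate numbers were not said to share anything: 21 same-number pairs correlated between -0.359 and 0.318, 8 of them over 0.1.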

Additional observations from a re-analysis of the deposited data

How the results depend on the processing

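No called difference changed sign in any alternative. Of the single-gene results under alternatives, 35 lost a call and 23 gained 1. Another 9, not called, changed sign with a shift above the gene's SD within groups. Of the counts and medians under alternatives 465 stayed within 1.5 times or 1 SD between arrays (0.0542) and 37 moved. In naive mice at 16 against 4 weeks the 11 calls became 6 above the 60th percentile of level, 17 after quantile normalization, 7 with only the arrays compared and 6 to 8 leaving out 1 replicate, while 16.2%, 21.9%, 10.9% and 6.97% to 10.8% of all genes were called lower (12.7% as reported). In DMM mice at 16 against 4 weeks the 1 call became 2, 5, 3 with cyclic loess, 3 with array weights (2.52%, 6.23%, 2.79% and 2.73% of all genes lower), 0 with only the arrays compared and 0 to 1 leaving out 1 replicate. In sham mice over the same times 0 became 1, 2, 1, 1 and 0 to 1 for the first, quantile, loess, weights and replicate settings. In naive mice at 8 against 4 weeks 1 became 9 (quantile, 13.9% of all genes lower), 4 (loess, 4.37%), 4 (weights, 7.54%), 0 (only the arrays compared) and 0 to 1. Array weights gave 1 call for the change of the sham difference. DMM against naive at 16 weeks gave 0 to 3 leaving out 1 replicate, where 1 to 325 of all genes were called. Leaving out 1 replicate called 9 to 771 of all genes in DMM mice over time and 7 to 268 in sham mice. In naive mice at 8 against 4 weeks it called 307 to 906. Shares of all genes are not given for the other sham settings or the array weights call, so those counts are no result about collagens.

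Medians moved above the 60th percentile to 0.0838 (DMM against naive, 4 weeks), 0.21 (16 weeks), 0.18 (DMM against sham, 4 weeks), 0.16 (sham against naive, 16 weeks), -0.16 (naive, 8 against 4 weeks) and 0.22 (change of the sham difference). That setting tests fewer genes. DMM against naive at 16 weeks gave 0.0765 with no filter and 0.0757 to 0.164 leaving out 1 replicate, DMM against naive at 8 weeks -0.0652 to 0.0308 and DMM against sham at 16 weeks 0.00392 to 0.115. Quantile normalization gave -0.18 for naive mice at 8 against 4 weeks. The cause of the other moves was not tested. The replicate block left the 11 calls at 11 and changed no collagen count.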

Other observations

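The genes outside the collagen family whose values over all 25 arrays were most like the mean of the 10 fibrillar chains were Bmp5 (Pearson r 0.928), Abca9 (0.916), Lrp4 (0.891), Itgbl1 (0.887), Lama2 (0.882), Gm2399 (0.874), Sdc2 (0.865) and Igf1 (0.861). Lama2, the alpha 2 chain of laminin, belongs to a list counted above. All arrays enter these values, group differences included, and they are a description with no test.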
